A study of Mus musculus with 15 samples.

Results

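Hmga1 is an abundant chromatin protein of embryonic stem cells (ESC) that contacts AT-rich DNA through short motifs called AT-hooks. The genes described here are Bhlhe40, Fabp3, Irak3, Lrrc15, Gbas, Pax8, Gbx2 and Soga3, which are 8 of the 21662 genes counted in mouse ESC. They were chosen by their change in expression between a line without the coding sequence of Hmga1 and wild type, so their values in that comparison are a description and no test of it. By the p-value of edgeR's quasi-likelihood test they held ranks 5 to 7 and 9 to 13 of the 13098 genes tested there. Hmga1, Ddx3y, Uty and Bmp7 at ranks 1 to 4 and Cdkn1c at rank 8 are not among the genes chosen. The last of the 8, Gbas, had a log2 change of 1.11, and Hspb8, which stood at rank 14 just outside the choice, had 1.10. The rule did not use their values in a separate Hmga1 KO line and its add-backs, and the tests were made there, although results from those lines were also known when the genes were chosen.

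The genes have unrelated roles. Bhlhe40, Pax8 and Gbx2 encode transcription factors. Bhlhe40 is a basic helix-loop-helix repressor that acts on the circadian feedback loop, Pax8 is a paired-box factor of the developing thyroid and kidney, and Gbx2 is a homeobox factor of the mid-hindbrain boundary that lies downstream of LIF and Stat3 in ESC and can sustain self-renewal. Fabp3 carries fatty acids in the cytosol, and Gbas (also called Nipsnap2) is a mitochondrial protein. Irak3 dampens signalling from Toll-like and interleukin-1 receptors, Lrrc15 is a leucine-rich repeat protein of the cell surface, and Soga3 belongs to a small family of coiled-coil proteins.

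RNA-seq was performed on 15 libraries in 2 experiments, all from ESC of mixed 129Sv-C57Bl/6 background kept in serum and LIF. In the KO experiment, the parental wild-type line (WT, n = 3), which expresses the biotin ligase BirA, was set beside an Hmga1 KO line with a Cas9-induced frameshift (n = 2). The same KO cells with a biotin-tagged Hmga1 cDNA (Hmga1 add-back, n = 2) or a tagged Hmga2 cDNA (Hmga2 add-back, n = 2) under a CAG promoter at a defined locus completed it. The full-deletion experiment compared wild type, called WT 2 here (n = 3), with a line that lost the complete coding sequence (full deletion, n = 3). Each line was 1 clone, so clone and genotype cannot be told apart. Letters mark batches in the KO experiment, which shared library preparation and flow cell, and WT c is the only library of its batch. Where p-values are given they measure the spread between cultures of these clones, except in the test between batches described below.

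Counts on genes summed to between 13465399 and 34952136 per library in the KO experiment, with more in batch a than in batch b in each line, and to between 14832310 and 21708492 in the full-deletion experiment. Levels are given as CPM, counts scaled to TMM-normalized library size over the genes tested. The 2 experiments were normalized separately, so a level set across them is approximate. Hmga1 itself had 340.6 ± 26.1 CPM in WT 2 (SD, n = 3) and 11.8 ± 0.769 CPM in the full deletion (SD, n = 3). The KO experiment gave 320.2 ± 128 CPM for WT (SD, n = 3) and 156.5 ± 85.4 CPM for the frameshift KO (SD, n = 2), where transcript remains. WT 2 b stood apart from the other 5 libraries of its experiment, with a TMM factor of 0.752 where the others lay between 0.986 and 1.12. Of 12 pluripotency markers, each averaged at least 1 CPM in every group, and of 12 feeder fibroblast markers 7 or 8 averaged under 1 CPM.

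Positions were taken from the GENCODE annotation of NCBIM37 (mm9), in which each of the 8 genes is protein-coding. Bhlhe40 lies on the plus strand at chr6:108610623-108616919 and Fabp3 on the plus strand at chr4:129985839-129992707. Irak3 lies on the minus strand at chr10:119578704-119639186 and Lrrc15 on the minus strand at chr16:30269388-30283342. Gbas lies on the plus strand at chr5:130230938-130264203, Pax8 on the minus strand at chr2:24276071-24331119 and Gbx2 on the minus strand at chr1:91824537-91829865. Soga3, listed in the annotation under its older symbol 6330407J23Rik, lies on the plus strand at chr10:28863802-28919436. The genes are thus spread over 7 chromosomes, and Irak3 and Soga3 share chromosome 10. Irak3 lies 159144 bases from Hmga2 (chr10:119798331-119913525), the gene whose cDNA was used for the Hmga2 add-back.

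Because Hmga1 contacts AT-rich DNA, the AT content of the genes was taken from the NCBIM37 sequence. The span from gene start to end held 60.05% AT in Soga3, higher than 85.9% of the 22380 protein-coding genes, and 44.06% in Gbx2, higher than 5.5% of them. The other 6 lay between 47.39% and 56.03%, around the median of 54.36% over the 22380 genes. Soga3, Irak3 and Pax8 were above this median and the other 5 genes below it. Both extremes, Soga3 and Gbx2, were lower in the full deletion.

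The windows around the transcription starts of 7 of the genes were read from RefSeq (8 windows of 300 bases, since Irak3 has 2 starts, GRCm38.p6). They were searched for CACGTG, the E-box that Bhlhe40 and related factors can bind, for TTCNNNGAA, the Stat element, and for TATAAA, on both strands. CACGTG was found in 2 of the 8 windows, those of Gbx2 and of 1 start of Irak3, and in 7.15% of all 32851 windows. TTCNNNGAA was in 0 of the 8 and in 8.30% of all, and TATAAA in 0 of the 8 and in 13.6% of all. The 30 bases around CACGTG are shown for Gbx2 and Irak3, with the match in capitals. Each was matched once in NCBIM37 and lies in an annotated exon of its own gene on the minus strand, at chr1:91827808-91827837 for Gbx2 and at chr10:119638631-119638660 for Irak3. The Gbx2 stretch is also within the span of D130058E05Rik, and the Irak3 stretch reaches into Tmbim4, both on the plus strand. The match began 74 bases before the RefSeq start in Gbx2 and 5 bases after it in Irak3.
Gbx2: ggtgctcggtccCACGTGacacgagctccg
Irak3: ggctccctacgtCACGTGgggcccgccctg

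Soga3 and Lrrc15, the pair whose levels ran most strictly opposite to each other, are shown with 120 bases upstream of their starts, from base -130 to base -11. These hold 50% AT in Soga3 (chr10:28863672-28863791, plus strand) and 40.0% in Lrrc15 (chr16:30283351-30283470, minus strand), outside any annotated exon of either gene. The Soga3 stretch lies within the span of Gm9996, a gene on the other strand.
Soga3: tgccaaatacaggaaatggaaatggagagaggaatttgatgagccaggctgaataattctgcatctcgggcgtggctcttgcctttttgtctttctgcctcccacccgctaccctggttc
Lrrc15: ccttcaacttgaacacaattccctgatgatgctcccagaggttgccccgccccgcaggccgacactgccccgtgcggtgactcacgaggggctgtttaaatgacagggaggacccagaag

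In the full deletion, Bhlhe40, Fabp3, Irak3, Lrrc15 and Gbas were higher than in WT 2, and Pax8, Gbx2 and Soga3 were lower. Levels are given next for each gene in every library. Since this comparison chose the genes, log2 changes are printed with their standard error (SE) and without a p. In bulk RNA, fewer cells of a type and less RNA per cell cannot be told apart. With adjusted p below 0.01 and 2-fold or more, edgeR's quasi-likelihood test after Benjamini-Hochberg adjustment called 4 of the 8 (Bhlhe40, Fabp3, Pax8 and Gbx2), against 0.0687% of all genes tested. At adjusted p below 0.05 it called all 8, against 2.77% of all genes tested. CPM of the groups did not overlap for the 8, and this held for 51.3% of the genes tested in this experiment. The choice of the genes fixed these counts for the 8, so the shares beside them measure no enrichment. The calls depended on single libraries. Without WT 2 b all 8 were called at the stricter threshold, among 362 of the 13163 genes tested in that fit. Without any of the other 5 libraries 0 of the 8 were, and 1 to 3 genes were called in all.

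**Figure D1:**
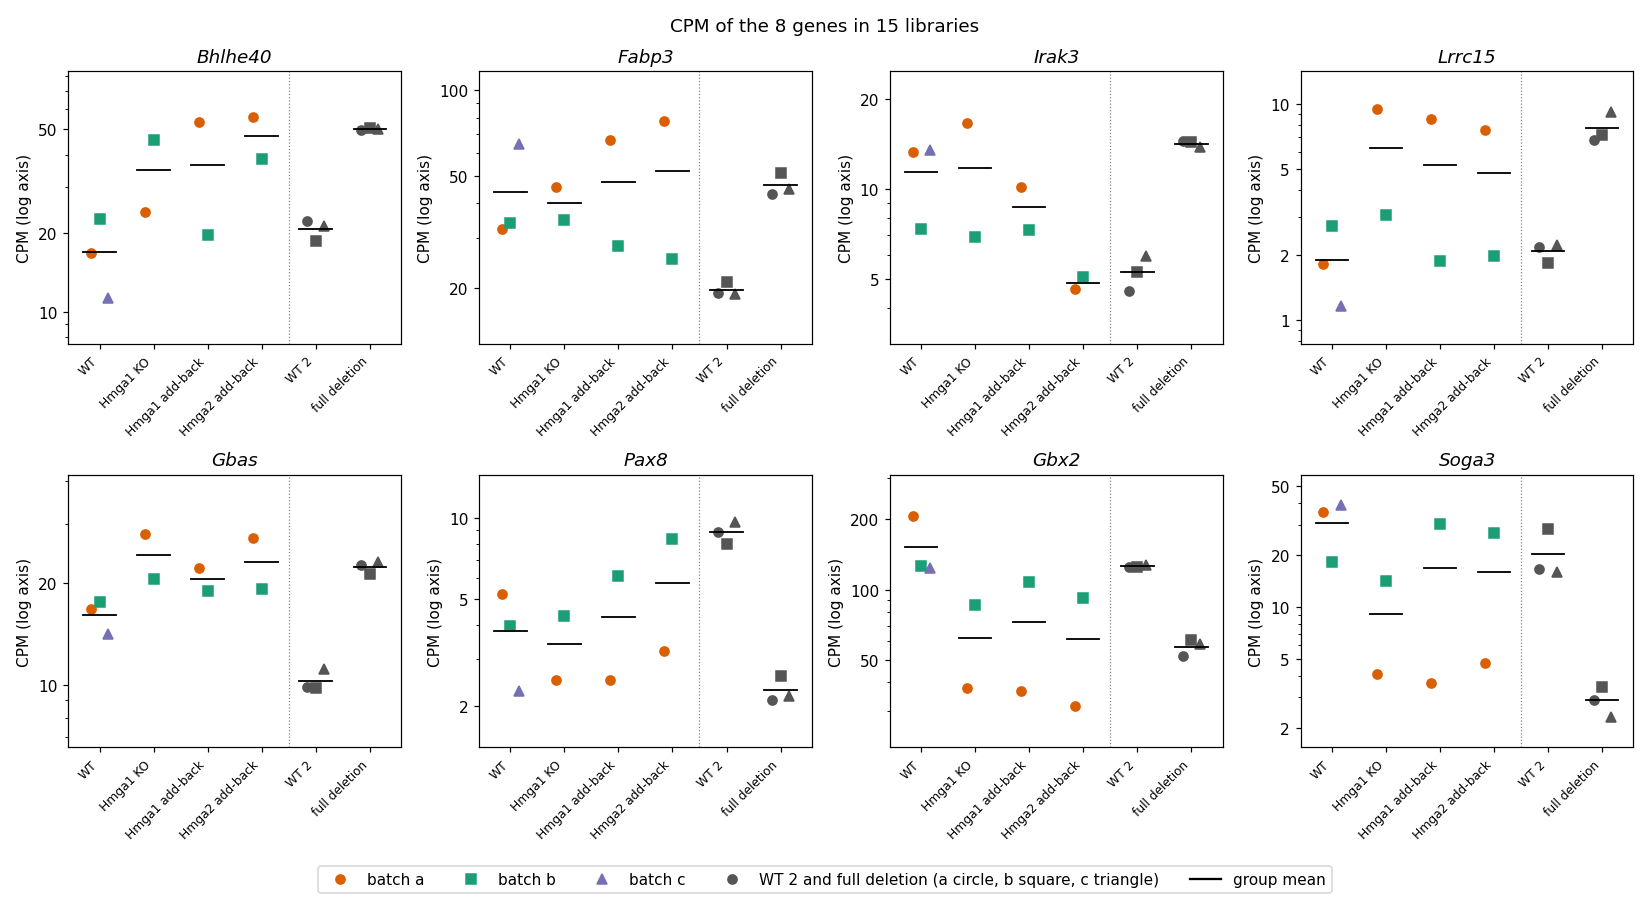
CPM (log axis) of each gene in the 15 libraries, by group along the horizontal axis; symbols mark the letters a, b and c, and bars are group means. To the right of the dotted line the full deletion separates from WT 2 in each panel, and to the left batches a and b of the KO and add-back lines separate most clearly for Lrrc15, Gbx2 and Soga3.

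Among the transcription factors, Gbx2 was the most abundant. In the order a, b, c it had 124.8, 125.4 and 127.6 CPM in WT 2 and 51.7, 60.8 and 58.2 CPM in the full deletion. The WT 2 libraries lay close together and all deletion libraries were below them. The log2 change was -1.15 (SE 0.10). Pax8 was a low-abundance transcript, with 8.83, 8.03 and 9.64 CPM in WT 2 and 2.12, 2.59 and 2.18 CPM in the full deletion. The deletion values rest on 35 to 60 counts per library, and the log2 change was -1.94 (SE 0.17). Bhlhe40 moved the other way, from 22.3, 18.8 and 21.4 CPM to 49.7, 50.6 and 50.2 CPM. The 3 deletion libraries were nearly equal, and the log2 change was 1.27 (SE 0.10).

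Fabp3, the fatty acid carrier, had 19.2, 21.0 and 19.1 CPM in WT 2 and 43.2, 51.0 and 44.7 CPM in the full deletion. All 3 deletion libraries were above all WT 2 libraries, and the log2 change was 1.23 (SE 0.11). Gbas, the mitochondrial protein, went from 9.87, 9.80 and 11.2 CPM to 22.6, 21.3 and 23.04 CPM. Its log2 change of 1.11 (SE 0.11) was the smallest of the 8 in size.

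Irak3 had 4.56, 5.27 and 5.97 CPM in WT 2 and 14.4, 14.4 and 13.8 CPM in the full deletion, a log2 change of 1.43 (SE 0.14). Lrrc15 was the least abundant of the 8 in WT 2, with 2.18, 1.84 and 2.22 CPM from 30 to 46 counts per library. In the full deletion it had 6.83, 7.17 and 9.13 CPM, a log2 change of 1.88 (SE 0.19). Soga3 showed the largest change of the 8, from 16.5, 28.3 and 15.9 CPM to 2.90, 3.46 and 2.32 CPM. WT 2 b was the highest of the WT 2 libraries for this gene, the one at odds with its group in TMM factor. The log2 change was -2.80 (SE 0.28), and it ranked 8 in size among the 13098 genes.

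Per kilobase of exon, which allows levels of different genes to be compared, the order of the genes changed between the groups. In WT 2, Gbx2 led with 59.2 ± 0.705 CPM per kb and Fabp3 followed with 30.9 ± 1.67 (SD, n = 3 for each). Bhlhe40 (6.69 ± 0.593), Soga3 (5.13 ± 1.77) and Gbas (4.90 ± 0.369) came next, ahead of Pax8 (3.49 ± 0.319), Irak3 (1.71 ± 0.230) and Lrrc15 (0.392 ± 0.0394). The libraries of Soga3 overlapped those of Bhlhe40 and of Gbas, whereas Bhlhe40 (6.02 to 7.17 CPM per kb) was above Gbas (4.67 to 5.33 CPM per kb) in all WT 2 libraries. In the full deletion Fabp3 led with 72.3 ± 6.48 CPM per kb, ahead of Gbx2 with 26.8 ± 2.20 (SD, n = 3 for each). Soga3 (0.733 ± 0.144) was now the lowest, and its libraries overlapped those of Pax8 (0.909 ± 0.102).

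The annotated neighbours of the genes were examined in the same fit, to see whether the surrounding region moved with them. Of 21 protein-coding neighbours or overlapping genes, 14 were abundant enough to be tested in the full-deletion experiment. At adjusted p below 0.05 and 2-fold or more, 1 of the 14 passed in edgeR, against 2.77% of all genes, and it lies next to Soga3. This gene, 9330159F19Rik (chr10:28931449-28950585), is on the same strand and starts 12012 bases beyond the end of Soga3. Its log2 change was -3.24 (SE 0.34, adjusted p = 0.0132).

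9330159F19Rik had 3.37, 3.98 and 2.89 CPM in the WT 2 libraries (a, b, c) and 0.242, 0.259 and 0.545 CPM in the full deletion, from 4 to 12 counts per library. In the KO experiment it had 6.74, 2.79 and 6.39 CPM in WT a, b and c. KO a, Hmga1 add-back a and Hmga2 add-back a had 0.645, 0.316 and 0.741 CPM, and the same lines in batch b had 2.20, 6.90 and 6.13 CPM. The gene was thus low in the libraries in which Soga3 was low. Whether reads that run on from Soga3 contribute to its count was not tested.

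**Figure D2:**
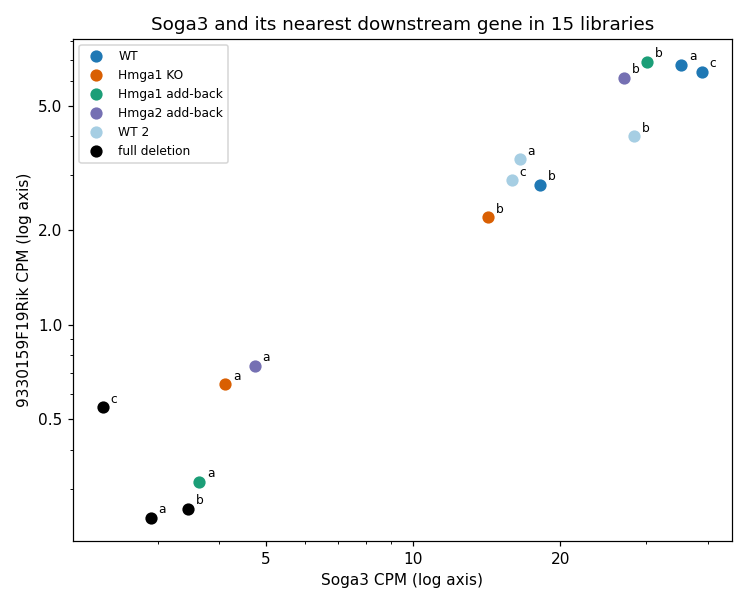
CPM of Soga3 (horizontal, log axis) against CPM of 9330159F19Rik (vertical, log axis), 1 point per library, coloured by group and labelled with its letter. The 3 full-deletion libraries and the 3 batch a libraries of the KO and add-back lines form the lower group, with 9330159F19Rik at 0.741 CPM or less, and the other 9 libraries lie at 2.20 CPM or more.

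Serinc2, upstream of Fabp3 by 29389 bases, had a log2 change of 1.05 (SE 0.29) in the full deletion and did not pass (adjusted p = 0.0598). Tmbim4, which overlaps the start of Irak3 on the other strand, had 0.66 (SE 0.18, adjusted p = 0.0569), and Zcchc17, which overlaps the end of Fabp3 on the other strand, had -0.51 (SE 0.18, adjusted p = 0.0961). The counts are strand-specific, so these partners are counted apart from the members. The other 10 tested neighbours had log2 changes between -0.44 and 0.32, and Itpr1 and Arl8b beside Bhlhe40 had 0.049 and 0.093. Asb18, Cpn2, Gp5 and 2310057J18Rik were under the count minimum. In KO against WT, Serinc2 had a log2 change of 1.53 (SE 0.37, adjusted p = 0.171 in edgeR) and did not pass there either.

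Next, the KO experiment was used to ask how the genes behaved in an Hmga1 mutant line whose values the rule did not use. None of the 8 passed adjusted p below 0.01 with 2-fold or more in KO against WT, where edgeR called 0.0216% of all genes. At an unadjusted p under 0.05, 3 of the 8 passed (Gbx2, Soga3 and Gbas), against 12.6% of all genes. CPM of the groups did not overlap for 5 of the 8 (Bhlhe40, Gbx2, Lrrc15, Soga3 and Gbas), against 23.5% of all genes. The log2 change had the sign of the full deletion for all 8 in this fit, but for Fabp3 and Irak3 it was smaller than its SE. The share of all genes with the same sign was not computed, so this count is a description. For Fabp3 the mean CPM was 43.6 in WT and 40.1 in KO, the other way. The sign turned in at least 1 of 13 alternatives for Bhlhe40, Fabp3, Pax8 and Irak3. Without WT b, 62 genes were called and Gbx2 and Soga3 were among them. DESeq2's Wald test, which called 76 genes, called 0 of the 8.

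Gbx2 stood at 207.9, 125.8 and 124.1 CPM in WT (a, b, c) and at 37.9 and 86.2 CPM in KO (a, b). Both KO libraries were below all WT libraries, by very different amounts. The log2 change was -1.72 (95% interval -2.84 to -0.60, adjusted p = 0.232 from edgeR). Without WT a it was -0.41 (adjusted p = 0.734 in edgeR) and without WT b -2.57 (adjusted p = 0.000452 in edgeR). Soga3 had 35.4, 18.2 and 38.9 CPM in WT and 4.12 and 14.2 CPM in KO. Its log2 change was -2.23 (95% interval -4.06 to -0.39, adjusted p = 0.335 in edgeR). WT c is alone in its batch, so WT enters this fit through WT a and WT b only. Without WT a the log2 change of Soga3 was -0.0058, and without WT b it was -3.43 (adjusted p = 0.00364 in edgeR).

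Gbas had 16.7, 17.5 and 14.2 CPM in WT and 27.9 and 20.5 CPM in KO, a log2 change of 0.49 (95% interval 0.098 to 0.89, adjusted p = 0.324 in edgeR), and leaving out WT a or WT b gave 0.26 or 0.71. Lrrc15 had 1.80, 2.72 and 1.16 CPM in WT and 9.48 and 3.04 CPM in KO. KO a stood well above the rest and KO b just above WT b, and the log2 change was 1.30 (95% interval -0.078 to 2.67, adjusted p = 0.418 in edgeR). Without WT a it was 0.0013, and without WT b 2.49. Bhlhe40 had 16.8, 22.7 and 11.3 CPM in WT and 24.1 and 45.7 CPM in KO, a log2 change of 0.83 (95% interval -0.24 to 1.90, adjusted p = 0.502 in edgeR).

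For the other 3 genes the KO and WT libraries overlapped. Fabp3 had 32.3, 34.0 and 64.5 CPM in WT and 45.4 and 34.9 CPM in KO, a log2 change of 0.23 (95% interval -0.57 to 1.03, adjusted p = 0.829 in edgeR). Its interval includes 0 and overlaps that of the full deletion (0.97 to 1.48), the comparison that chose the gene. Irak3 had 13.3, 7.37 and 13.6 CPM in WT and 16.6 and 6.92 CPM in KO. Its log2 change was 0.16 (95% interval -0.51 to 0.84, adjusted p = 0.86 in edgeR). The interval of Irak3 in the full deletion, which chose it, was 1.10 to 1.76. Pax8 had 5.22, 3.96 and 2.28 CPM in WT and 2.50 and 4.33 CPM in KO, a log2 change of -0.60 (95% interval -1.56 to 0.36, adjusted p = 0.584 in edgeR). The 2 lines were not tested against each other for these genes.

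**Figure D3:**
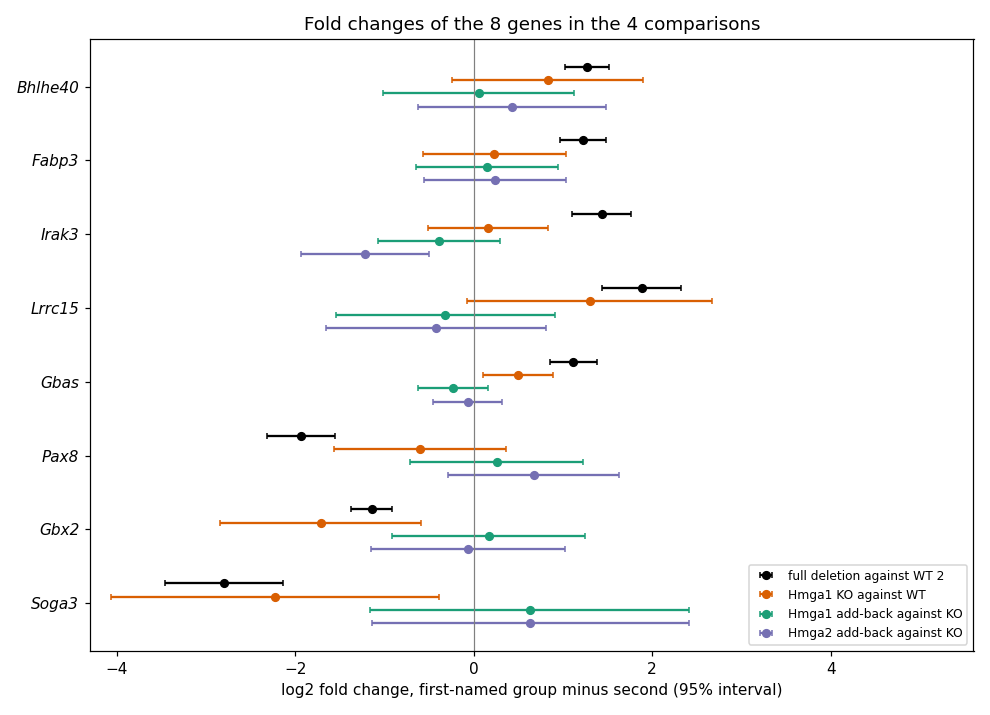
Log2 fold change (points) and 95% interval (bars) of the 8 genes in the 4 comparisons. Values for the full deletion chose the genes and are descriptive; for Gbx2, Soga3 and Gbas the interval in Hmga1 KO against WT stays on 1 side of 0, and in the add-backs this is so for Irak3 with Hmga2.

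The add-backs ask whether tagged Hmga1 or Hmga2 moves these genes away from their level in the KO line. Hmga1 itself did not differ detectably between the Hmga1 add-back and KO, at 184 and 122.7 CPM (a, b) against 216.9 and 96.1 CPM, a log2 change of 0.037 (95% interval -0.34 to 0.42, adjusted p = 1 in edgeR). These counts do not tell the tagged cDNA from the transcript of the frameshift allele, so expression of the add-back could not be read from them. By Western blot, the paper reports Hmga1 protein in the Hmga1 add-back at a level comparable to WT. Hmga2 had 249.1 and 221.9 CPM in the Hmga2 add-back (a, b), against 18.9 and 13.8 CPM in KO. In the Hmga1 add-back 0 of the 8 passed at adjusted p below 0.01 and 2-fold or more, and edgeR called 0% of all genes. At an unadjusted p under 0.05, 0 of the 8 passed, against 2.80% of all genes, and the groups of 2 libraries did not overlap for 0 of the 8, against 14.8% of all genes. The intervals were wide. For Soga3 the log2 change against KO was 0.63 (95% interval -1.16 to 2.41) and for Gbas, the most narrowly measured, -0.23 (95% interval -0.62 to 0.16). Bhlhe40 had 53.4 and 19.7 CPM in Hmga1 add-back a and b, which brackets both KO libraries.

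In the Hmga2 add-back 0 of the 8 were called, against 0.00719% of all genes. At an unadjusted p under 0.05, 1 of the 8 passed, against 5.09% of all genes, and the groups did not overlap for 1 of the 8, against 20.4% of all genes. Both counts are of Irak3, the inhibitory kinase family member. Irak3 had 4.62 and 5.07 CPM in Hmga2 add-back a and b, below every other library of the KO experiment, where the lowest was KO b with 6.92 CPM. Hmga1 add-back a and b had 10.2 and 7.27 CPM. The log2 change of the Hmga2 add-back against KO was -1.22 (95% interval -1.94 to -0.51, adjusted p = 0.877 from edgeR), so it fails the correction over all genes. It kept its sign in all 12 alternatives run, between -1.68 and -0.67. The direction is opposite to that of Irak3 in the full deletion.

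Large differences between the 2 batches ran through the KO experiment. In batch a, KO was at least 2-fold away from WT for 4 of the 8 genes (Pax8, Gbx2, Lrrc15 and Soga3), against 9.38% of all genes. In batch b this held for 1 of the 8 (Bhlhe40), against 5.88% of all genes. There is 1 library per line and batch, so these folds have no error.

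Gbx2 in batch a stood at 18.2% of WT a in KO, and the cells with tagged Hmga1 or Hmga2 stood at 17.6% and 15.2%. In batch b the values were 68.5%, 86.1% and 72.8% of WT b. Its level in the batch a libraries of these lines, 31.5 to 37.9 CPM, was below that of the full deletion (51.7 to 60.8 CPM), and in batch b it was 86.2 to 108.3 CPM. WT a was itself the highest WT library for Gbx2.

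Soga3 in batch a stood, with the lines in the same order, at 11.7%, 10.3% and 13.4% of WT a, and in batch b at 78.3%, 165.6% and 148.5% of WT b. Lrrc15 in batch a stood at 526%, 473.1% and 420.6% of WT a, and in batch b at 111.9%, 69.0% and 72.6% of WT b. The 3 batch a libraries of these lines had 3.65 to 4.74 CPM of Soga3, just above the full deletion (2.32 to 3.46 CPM), and 7.58 to 9.48 CPM of Lrrc15, overlapping the full deletion (6.83 to 9.13 CPM). The batch b libraries had 14.2 to 30.1 CPM of Soga3 and 1.88 to 3.04 CPM of Lrrc15, both overlapping WT. Against KO a, Hmga1 add-back a had 88.4% and Hmga2 add-back a 114.9% of the Soga3 level, and both stayed far below WT a.

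**Figure D4:**
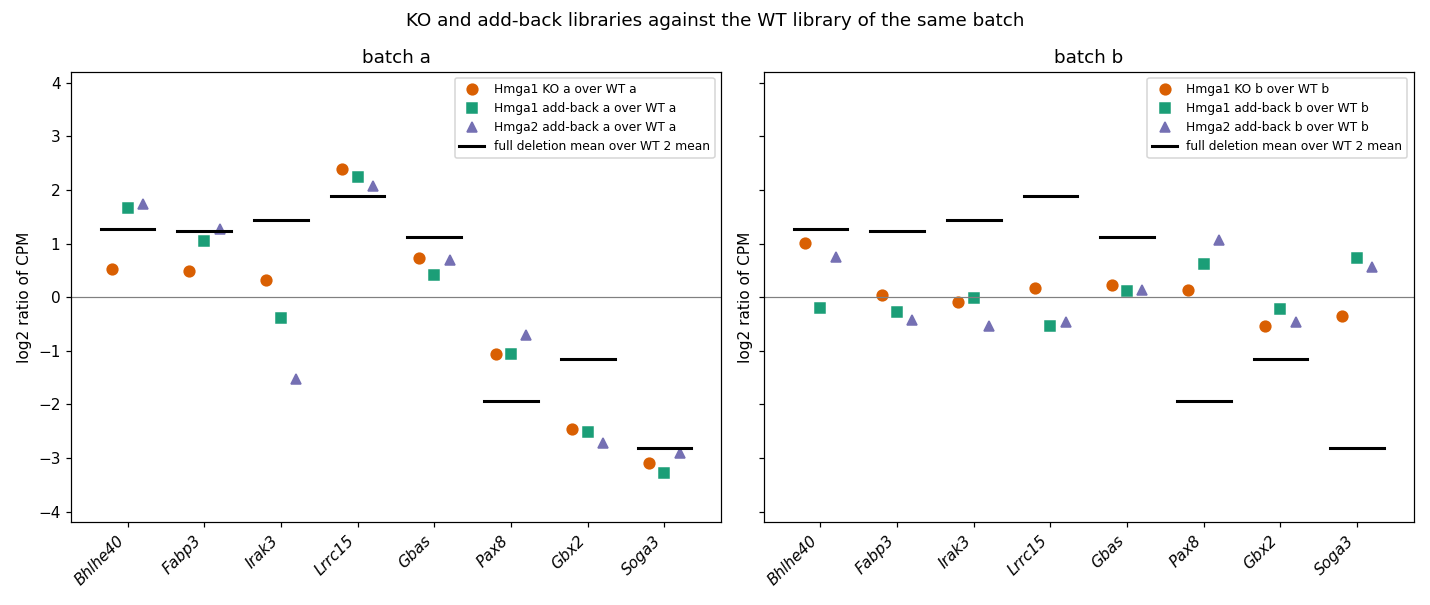
Log2 ratio of the CPM of each KO or add-back library over the WT library of the same batch (left, batch a; right, batch b); black bars give the full-deletion mean over the WT 2 mean. In batch a, Lrrc15, Gbx2 and Soga3 lie near or beyond the bars in all 3 lines, and in batch b they lie within 1 log2 unit of 0.

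To measure this, the effect of the KO lineage (KO and both add-backs together against WT) was compared between batches in a fit of the 8 libraries of batches a and b across all 13912 genes, a test added after the pattern had been seen. The lines serve as replicates there although they differ in genotype, and each batch has 1 WT library. The p-values of this fit therefore rest on the spread between KO and add-back lines. They do not measure the spread between WT cultures. The difference, batch a minus batch b, was -2.16 on the log2 scale for Gbx2 (SE 0.22, adjusted p = 0.0291 from edgeR). Gbx2 was the gene with the lowest p of all 13912 and the only one with adjusted p below 0.05, 1 of the 8 against 0.00719% of all genes. For Soga3 the difference was -3.47 (SE 0.49, adjusted p = 0.0567), at rank 9, and for Lrrc15 2.48 (SE 0.47, adjusted p = 0.115), at rank 47, neither of which passed in edgeR. For Irak3 it was -0.14 (SE 0.77, adjusted p = 0.95). Batch differs in library preparation, flow cell and depth at once. The paper reports RNA from independent cultures taken on different days, so the culture may differ between batches too. These cannot be told apart.

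The wild types of the 2 experiments did not agree for all genes either. Fabp3 had 32.3 to 64.5 CPM in WT and 19.1 to 21.0 CPM in WT 2, and Gbas 14.2 to 17.5 CPM in WT and 9.80 to 11.2 CPM in WT 2. Irak3 had 7.37 to 13.6 CPM in WT and 4.56 to 5.97 CPM in WT 2, and Pax8 2.28 to 5.22 CPM in WT and 8.03 to 9.64 CPM in WT 2. For these 4 genes the WT libraries of the KO experiment lay to the side of the full deletion, and Pax8 in WT c (2.28 CPM) and Fabp3 in WT c (64.5 CPM) were at or past the deletion level. For Gbx2, Lrrc15, Soga3 and Bhlhe40 the ranges of WT and WT 2 overlapped. This comparison crosses experiments and was not tested.

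Across the 15 libraries, with log2 CPM centred on the wild type of each experiment, some of the genes ran closely together or opposite to each other. Lrrc15 and Soga3 had a Pearson r of -0.98, Gbx2 and Lrrc15 -0.89, and Gbx2 and Soga3 0.87. Fabp3 and Pax8 had -0.92, and Pax8 and Irak3 -0.85, whereas Gbx2 and Irak3 had -0.045. These values are a description: libraries share clones, batches and depth, and the choice of the genes fixes part of their direction.

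Genes with the most similar pattern to each were sought among 10838 genes that averaged 50 counts or more in both experiments. Soga3 ran with Bmp4, a growth factor of the TGF-beta superfamily (r = 0.97), and Ripk1 (r = 0.96). Lrrc15 ran with Chst11 (r = 0.96) and Ptpru (r = 0.95), and Gbx2 with Rrp8 and the histone demethylase gene Kdm2b (r = 0.95 each). Pax8 ran with D11Wsu47e (r = 0.96) and Tgm3 (r = 0.94), Gbas with Ppm1h (r = 0.95) and Gde1 (r = 0.93), and Bhlhe40 with Slc17a5 (r = 0.94) and Ube2t (r = 0.93). Fabp3 ran with Orai3 and Sdc4 (r = 0.92 each), and Irak3 with Pfkm (r = 0.92) and Calm3 (r = 0.91). Each value is over 15 libraries. In the full deletion Bmp4 had a log2 change of -1.43 and Tgm3 of -1.52, the largest among these genes.

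Relatives of each gene and genes of the pathways around it were read from the same fits. In 8 lists of 81 distinct genes, 54 of which were tested in the full-deletion experiment, 0 passed adjusted p below 0.01 with 2-fold or more in any of the 4 comparisons. At adjusted p below 0.05 and 2-fold or more in edgeR, 3 of the 54 passed in the full deletion, against 2.77% of all genes tested. Otx2, a homeobox gene known to counteract Gbx2 at the mid-hindbrain boundary, had 12.6 ± 4.57 CPM in WT 2 and 32.1 ± 0.901 CPM in the full deletion (SD, n = 3 each), with a log2 change of 1.34 (SE 0.26, adjusted p = 0.0334). Il1r1, the interleukin-1 receptor, rose from 0.858 ± 0.215 to 2.07 ± 0.368 CPM (SD, n = 3 each), with a log2 change of 1.24 (SE 0.29, adjusted p = 0.0443). Lrrn2, a leucine-rich repeat surface protein, fell from 2.70 ± 0.653 to 1.30 ± 0.139 CPM (SD, n = 3 each), with a log2 change of -1.05 (SE 0.26, adjusted p = 0.0496). In KO against WT these 3 had log2 changes of 0.67, -0.21 and -1.51, none of which passed.

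Of the circadian feedback genes around Bhlhe40, 15 of 16 were tested and 0 passed, with a median log2 change of 0.24 in the full deletion against 0.043 over all genes. Clock, the activator of that loop, had -0.20 (SE 0.090) and Cry1, a repressor of it, 0.24 (SE 0.14). In the list of LIF-Stat3 pathway and Gbx2/Otx2 genes, 10 of 12 were tested. Otx2 alone passed, and no gene of the LIF-Stat3 pathway did. The ESC transcription factors Tfcp2l1 and Klf5, the most abundant genes of the list, had 0.39 (SE 0.17) and -0.28 (SE 0.17). The median of this list was 0.054. In the Toll and interleukin-1 list around Irak3, 17 of 18 were tested and Il1r1 alone passed, with a median of 0.16. Tab2 and Map3k7, which transmit the signal downstream, had -0.24 (SE 0.14) and -0.32 (SE 0.12).

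Few paralogs were abundant enough to be tested. Of 8 other Pax genes 1 was tested, Pax6, with a log2 change of -0.063 (SE 0.19), and the other 7 averaged at most 0.161 CPM in either group. Of 14 intracellular lipid-binding genes related to Fabp3, 5 were tested and 0 passed, with a median of 0.19. Fabp5 had 107.4 ± 69.0 CPM in WT 2 and 55.8 ± 0.724 in the full deletion (SD, n = 3 each). Its WT 2 libraries spread from 66.5 to 187.1 CPM, and the log2 change was -0.94 (SE 0.39, adjusted p = 0.123 in edgeR). Crabp1, a retinoic acid carrier, had 14.9 ± 3.86 and 25.5 ± 0.834 CPM (SD, n = 3 each). Its log2 change of 0.77 (adjusted p = 0.0501 in edgeR) missed both the p and the 2-fold requirement. Mtcl1 (formerly Soga2) and Soga1, the relatives of Soga3, had -0.26 (SE 0.14) and -0.25 (SE 0.12). Nipsnap1 and Nipsnap3b, relatives of Gbas, had -0.015 (SE 0.097) and 0.36 (SE 0.24), and 2 of 3 were tested. Of 8 leucine-rich repeat surface genes related to Lrrc15, 2 were tested, Lrrn2 and Lrrn1, and the latter had 0.53 (SE 0.44).

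Markers of ESC states and of other cells were read beside these results. Summed CPM of 12 feeder fibroblast markers was 7.72 to 12.7 in WT 2 and 19.1 to 20.2 in the full deletion, and Col3a1, Dcn and Postn were at 0 in both groups. Lrrc15 is known from fibroblasts, and a part of such cells in its difference was not tested. In the KO experiment the sum was 15.1 to 20.6 in WT and 23.03 to 27.8 in KO. Summed CPM of 12 pluripotency markers was 4817 to 7366 in WT 2 (mean 5667) and 4181 to 4286 in the full deletion (mean 4241). Of the 12, 4 had a higher mean in the full deletion and 8 a lower one. Without Zfp42 and Fgf4, which differed most, the sums were 3085 to 3981 and 2972 to 3033. The sum of 10 formative and neural markers, Otx2 among them, was 368.3 to 433.2 in WT 2 and 289.5 to 306.3 in the full deletion. Without Dnmt3b, a DNA methyltransferase, the other 9 summed to 99.9 to 118.3 and 117 to 121.6. Without Otx2 as well, which was higher in the full deletion, the sums were 84.1 to 110.9 and 85.1 to 88.6. Of the 10, 3 had a higher mean in the full deletion and 7 a lower one. For 10 primitive endoderm markers the sum was 244.6 to 260.1 in WT 2 and 198.8 to 206.5 in the full deletion. It turned round without the laminin genes Lamb1 and Lama1, to 46.4 to 49.6 and 51.9 to 53.6, and 5 of the 10 markers had a higher mean in each group. The sum was, for 8 mesendoderm markers, 2.21 to 4.96 and 4.58 to 5.41. In WT and KO of the other experiment, the sums were 4492 to 5076 and 5129 to 5526 for pluripotency, 327.4 to 382.3 and 298.8 to 322.3 for formative and neural, 584.9 to 775.3 and 244.3 to 541.1 for primitive endoderm, and 9.39 to 13.6 and 5.58 to 7.98 for mesendoderm markers. Without the 2 markers of each list that differed most, WT and KO overlapped for pluripotency, formative and neural, and mesendoderm markers. KO stayed lower for primitive endoderm markers (120 to 238.8 against 288.9 to 383.8). For feeder fibroblast markers KO stayed higher (7.66 to 7.905 against 5.35 to 6.89), though 5 of the 12 had a lower mean in KO. So did the full deletion against WT 2 (9.22 to 10.6 against 5.33 to 8.09), where 1 of the 12 had a lower mean. No gene of these 5 lists was called in edgeR at adjusted p below 0.01 with 2-fold or more in any of the 4 comparisons, and a part of these shifts in the results above was not tested.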

How the data were processed

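RNA was depleted of ribosomal RNA, made into stranded libraries and sequenced from 1 end. The authors trimmed 3 bases, ran QuasR with Bowtie against mm9, placed a read with several equal alignments at 1 of them at random, and deposited raw counts of same-strand reads per UCSC known gene, without normalization. Genes with near-identical copies therefore share reads. The deposited whole-number counts were used as they stand, and 0 columns were left unmapped. The authors' other files were not used here.

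Each experiment was tested on its own, for genes that averaged 10 counts or more, by edgeR 4.0.16 (quasi-likelihood fit, R 4.3.3) after TMM normalization. All p-values given as adjusted are Benjamini-Hochberg values over every gene of that fit. A call needed adjusted p below 0.01 and 2-fold or more. The KO experiment was fitted on all 9 libraries with the batch letter as a term, which absorbs WT c; the log2 difference between batches a and b in WT had a correlation across genes of 0.493, 0.36 and 0.38 with that in KO and the Hmga1 and Hmga2 add-backs. The full-deletion experiment was fitted on 6 libraries without such a term. Standard errors and 95% intervals come from the same fits. The procedure was tested on simulated data.

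The 8 genes, the lists of relatives and the marker lists were chosen with earlier results of these data known. Named beside the members were list genes that passed, the 2 most abundant tested or counted genes of each list, the 2 genes with the highest Pearson correlation (log2 CPM, prior count 2), and the nearest annotated neighbours. Otx2, Il1r1, Hspb8, Ddx3y, Uty, Bmp7, Cdkn1c and the genes that overlap a member were added after values were seen. So were the marker sums without their leading genes and the test between batches. Positions come from the GENCODE annotation of NCBIM37, and sequences from RefSeq (GRCm38.p6) placed by exact match in NCBIM37. Alternatives were DESeq2 1.42.0, limma-trend (limma 3.58.1), other scalings and filters, the replicate block switched on or off, and each library left out. Plots were drawn with matplotlib 3.10.9.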

Additional observations from a re-analysis of the deposited data

Results flagged for a closer look

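The effect of the KO lineage on Gbx2 differed between batches a and b of the KO experiment, by -2.16 on the log2 scale (batch a minus batch b, adjusted p = 0.0291 from edgeR). The mean of KO and both add-backs over WT was -2.56 on the log2 scale in batch a and -0.40 in batch b, and the direction was the same in 3 of 3 lines of each batch. These lines come from 1 KO clone and share the WT library of their batch, so their agreement is not independent. The fit uses lines of different genotype as replicates and 1 WT library per batch, and the level of WT a (207.9 CPM) was above that of WT b (125.8 CPM). The adjusted p does not measure the spread between WT cultures. No group held enough libraries for a search for outlying samples.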

How the results depend on the processing

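In the full deletion the log2 changes of the 8 genes kept their sign in all 13 alternatives run, from 1.08 (Gbas) to 2.16 (Lrrc15) where higher and from -0.86 (Gbx2) to -2.97 (Soga3) where lower. How many genes were called there varied, from 9 in the reported fit to 363 at adjusted p below 0.05, 3 when scaled by summed counts, 31 with no filter, 463 by DESeq2's Wald test, and 1 to 362 with a library left out. Of the 8 members, 4 were called in the reported fit, 8 with no filter or by DESeq2, 0 with summed counts, and 0 to 8 with a library left out. Scaling by summed counts shifted the median over all genes from 0.043 to 0.32. With the letters as a replicate block, 4 genes were called and 1 of them was a member, Soga3. The letters are not stated to pair these libraries, and deviations of same-letter libraries correlated at 0.084 (a), 0.094 (b) and -0.056 (c). In KO against WT, 3 genes were called in the reported fit, 9 at adjusted p below 0.05, 17 with no filter, 76 by DESeq2, 1 with no replicate block and 0 to 62 with a library left out, with 0 to 2 members among them. Without KO a or KO b edgeR called 0 genes there, with 728 and 1192 at an unadjusted p below 0.05. In the Hmga1 add-back 0 were called in the reported fit, 2 by DESeq2 and 4 in a fit of only the 2 groups, and in the Hmga2 add-back 1, with 2 at adjusted p below 0.05, 3 with no filter, 10 by DESeq2, 2 by limma-trend and 0 to 1 with a library left out.

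Signs held for the other 4 genes in KO against WT, but with 1 library left out their log2 changes ran from -2.57 to -0.41 for Gbx2, -3.43 to -0.0058 for Soga3, 0.0013 to 2.49 for Lrrc15 and 0.26 to 0.71 for Gbas, in each case between the values without WT b and without WT a. The signs that turned belong to values whose 95% interval includes 0, and the cause was not tested. With no replicate block Fabp3 had -0.12 in KO against WT, and by limma-trend Bhlhe40 had -0.0315 in the Hmga1 add-back against KO. Leaving out 1 library at a time, log2 changes in KO against WT ran from -0.0048 to 1.45 for Bhlhe40, -0.30 to 0.85 for Fabp3, -1.23 to 0.34 for Pax8 and -0.34 to 0.50 for Irak3. In the Hmga1 add-back against KO they ran from -0.92 to 0.79 for Bhlhe40, -0.19 to 0.43 for Fabp3, -0.089 to 0.57 for Pax8, -0.32 to 0.55 for Gbx2, -0.74 to 0.095 for Irak3, -1.06 to 0.060 for Lrrc15 and -0.55 to 1.38 for Soga3. In the Hmga2 add-back against KO they ran from -0.24 to 1.21 for Bhlhe40, -0.38 to 0.72 for Fabp3, -0.53 to 0.33 for Gbx2, -0.073 to 1.17 for Soga3 and -0.22 to 0.066 for Gbas. Where a lone library was left in a group, it was assumed to vary like the others.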
